A study of Homo sapiens with 3 samples.

Results

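The genes described here are the coactivators YAP1 and WWTR1, the 4 TEAD transcription factors that they bind, the target genes CTGF, CYR61 and ANKRD1, and AJUBA, which encodes a LIM protein that restrains the Hippo kinases. They were picked by gene symbol, and all 10 were found among the 20344 genes with a value in 2 RNA libraries from A375, a human melanoma line that carries mutant BRAF. The choice was made with the difference between these libraries in view, so that difference is described here and carries no test. Of the 3 samples of the series, 2 were used. The library titled A375, Prop is called the A375 library here, and the one titled A375-VR, Prop is called the A375-VR library; the other sample, A375-VR, DMSO by title, is not analysed here. The cell line labels of the libraries used are A375 and A375-VR. The extraction text of every sample instead names A375-VR cells held for 24 h in either DMSO or propranolol, a blocker of beta-adrenergic receptors, at 20 µM. The labels do not spell out VR or Prop, while the series title concerns propranolol and resistance to the BRAF inhibitor vemurafenib. Cell line and treatment cannot be told apart in the difference between the libraries. There is 1 library per group, and whether a line is 1 clone is not stated.

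YAP1 and its paralog WWTR1, also called TAZ, are the end point of the Hippo pathway. The kinases STK3 and STK4 activate LATS1 and LATS2, which phosphorylate YAP and TAZ and hold them in the cytoplasm. Without that mark they enter the nucleus and switch on genes through TEAD factors, which bind DNA while YAP and TAZ do not. CTGF and CYR61, secreted proteins of the matrix, and ANKRD1, a repeat protein of muscle and nucleus, are the readouts most used for this step. In melanoma the pathway is known for its link with invasive, dedifferentiated states and with tolerance of BRAF inhibitors. Activity of YAP and TAZ is set largely by their phosphorylation and place in the cell, which RNA levels do not measure.

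The hexamer that TEAD factors recognise lies close to the starts of several of these genes, and their sequences are shown because the genes that hold it differ in how they stood between the libraries. RefSeq promoter windows (GRCh38.p14, 250 bases before to 50 after a start) were matched for 7 of the 10 genes; CYR61, TEAD1 and TEAD4 had no entry. The letters GGAATG were searched on both strands, where the opposite strand reads CATTCC. The 250 bases before the CTGF start, on the minus strand at chr6:131951373-131951622, hold 3 copies, given in capitals. The 250 bases before the ANKRD1 start, on the minus strand at chr10:90921088-90921337, hold 2. For AJUBA and YAP1, which have 1 copy each, only the 30 bases around it are given, at chr14:22976884-22976913 on the minus strand and chr11:102110273-102110302 on the plus strand.
CTGF: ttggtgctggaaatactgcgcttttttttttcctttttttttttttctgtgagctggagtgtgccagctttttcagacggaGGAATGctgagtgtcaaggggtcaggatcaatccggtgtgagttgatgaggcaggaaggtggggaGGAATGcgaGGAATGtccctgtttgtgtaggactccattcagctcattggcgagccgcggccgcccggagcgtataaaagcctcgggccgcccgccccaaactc
ANKRD1: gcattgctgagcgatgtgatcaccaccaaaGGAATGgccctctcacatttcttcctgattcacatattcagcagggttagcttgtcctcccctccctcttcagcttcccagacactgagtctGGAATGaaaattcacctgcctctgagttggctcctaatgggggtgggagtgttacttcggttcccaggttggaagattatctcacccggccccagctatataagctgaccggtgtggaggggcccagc
AJUBA: gggaagttggctGGAATGaagccaaagcaa
YAP1: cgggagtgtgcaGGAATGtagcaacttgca

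In CTGF the copies begin 169, 104 and 95 bases before the start, and in ANKRD1 220 and 128 bases before it. The AJUBA copy begins 59 bases before the downstream of its 2 listed starts, and the YAP1 copy 162 bases before the start. Every copy reads GGAATG on the strand of its gene. At least 1 copy was present in 14% of all 35116 promoter windows of this length, at least 2 in 1.37% and at least 3 in 0.128%. No copy was found in the windows of WWTR1, TEAD2 and TEAD3. The AP-1 letters TGAGTCA and TGACTCA, each the reverse complement of the other, occurred in 4.95% of windows, and the CArG box of serum response factor in 1.29%. Neither was in a window of the 7 genes. These are matches of letters in short windows, and binding was not measured.

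**Figure D1:**
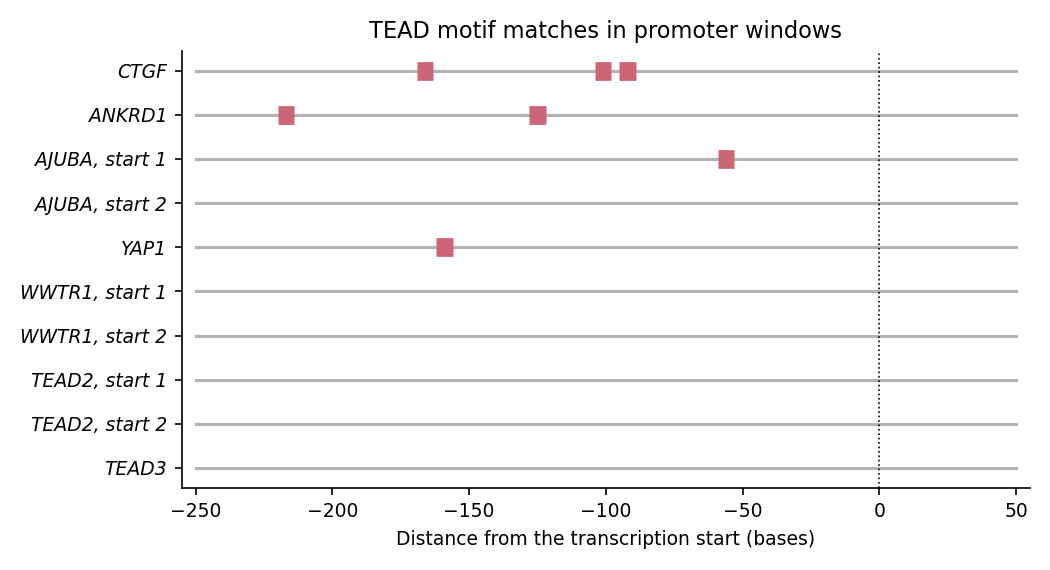
Matches to the TEAD hexamer in the RefSeq promoter windows of 7 genes. The x axis is the distance from the transcription start in bases, each grey line is a window and each block a match; start 1 of AJUBA, WWTR1 and TEAD2 is the start further downstream in the gene. CTGF has 3 blocks and ANKRD1 2, and AJUBA and YAP1 have 1 each.

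Levels are in FPKM, a read or fragment number divided by gene length in kilobases and by the library total, so they are per length. The totals behind them were 17811339 in the A375 library against 16438482 in the A375-VR library. Differences are on the log2(FPKM + 1) scale, as the A375-VR library minus the A375 library, and a gene that reached FPKM 1 in either library was called 2-fold apart at a size of 1 or more. Folds are plain ratios of FPKM, with 95% exact intervals from recovered reads that cover counting error only and compare 2 libraries, not conditions. Of 10761 genes past the filter, 66 (0.613%) were called lower in the A375-VR library and 338 (3.14%) higher, and the median difference was 0.10. After centring on the median log ratio that median was 0, with 101 called lower and 273 higher, so that the higher share of calls went from 83.7% to 73.0%. As a check of the label, melanocyte markers were present in part. SOX10, MITF, S100B, ERBB3 and PAX3 passed the filter, and TYR was at 0 in both libraries. None of 8 leukocyte markers passed.

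Among the 10 genes, 5 were at least 2-fold lower in the A375-VR library, where 0.613% of all genes were, and none was 2-fold higher. The 5 are the targets CTGF, CYR61 and ANKRD1, the regulator AJUBA and the transcription factor TEAD4. The coactivator WWTR1 stood the other way, 1.95-fold higher. YAP1, TEAD1, TEAD2 and TEAD3 had folds from 1.03 to 1.21. All 10 passed the filter, and their median difference was -0.50. Since these values chose the genes, nothing is read from the count.

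**Figure D2:**
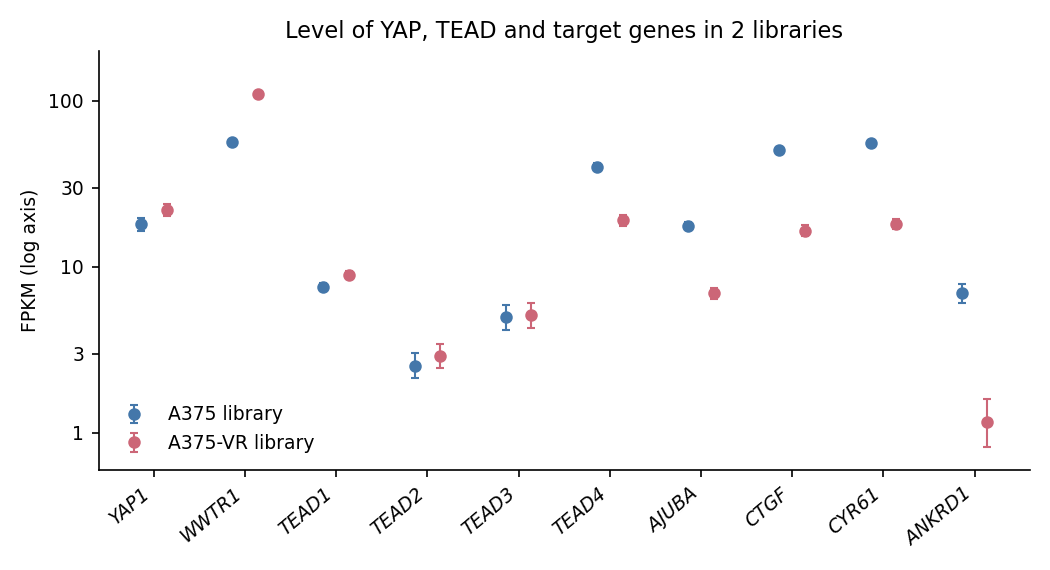
FPKM (log axis) of the 10 genes in the A375 library (blue) and the A375-VR library (red), 1 library each. Bars are 95% exact Poisson intervals on recovered reads, and are smaller than the point for many genes. CTGF, CYR61, ANKRD1, AJUBA and TEAD4 are lower in the A375-VR library and WWTR1 is higher.

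WWTR1 and YAP1, the coactivators, were both expressed in both libraries, WWTR1 more than YAP1. WWTR1 (Entrez 25937; GRCh37 chromosome 3 from 149235022 to 149454501, minus strand) measured 56.7 FPKM in the A375 library against 110.5 in the A375-VR library. It was the highest of the 10 genes in each, although in the A375 library its interval overlapped that of CYR61. Its fold of 1.95 (1.90 to 2.00) rested on 8489 and 15280 recovered reads. Its difference of 0.95 fell just short of the 2-fold call, at rank 385 from the top of all genes. After centring on the median that difference was 0.84, below its counting interval of 0.91 to 0.99. YAP1 (Entrez 10413; chromosome 11 from 101981178 to 102104155, plus strand) measured 18.01 FPKM in the A375 library against 21.9 in the A375-VR library, 1.21-fold higher (1.08 to 1.37). The YAP1 difference of 0.27 was 0.16 after centring. Per length, WWTR1 was 3.14 times YAP1 in the A375 library against 5.05 times in the A375-VR library. The sum of both was 74.7 FPKM and 132 FPKM, and WWTR1 made up 75.9% and 83.5% of it. WWTR1 thus led in each library, by a wider margin in the A375-VR library.

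The TEAD factors, which carry YAP and TAZ to DNA, were led by TEAD4 in both libraries. TEAD4 (Entrez 7004; chromosome 12 from 3068496 to 3149842, plus strand) measured 40.2 FPKM in the A375 library against 19.1 in the A375-VR library, which is 2.11-fold lower (1.93 to 2.30), and its difference of -1.04 ranked 53 from the bottom. TEAD1 (Entrez 7003; chromosome 11 from 12695968 to 12966284, plus strand) measured 7.55 and 8.91 FPKM, 1.18-fold higher (1.10 to 1.27). Its difference of 0.21 was 0.11 after centring, below its counting interval of 0.12 to 0.31. TEAD3 (Entrez 7005; chromosome 6 from 35441374 to 35464856, minus strand) measured 4.98 and 5.11 FPKM. At 135 and 128 recovered reads its 1.03-fold ratio (0.8003 to 1.32) was not distinguishable from 1, and its difference of 0.03 became -0.06 after centring. TEAD2 (Entrez 8463; chromosome 19 from 49843852 to 49865714, minus strand) was the lowest of the 4, with 2.54 and 2.92 FPKM. Its 1.15-fold ratio (0.901 to 1.46) was not distinguishable from 1 either.

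TEAD4 also took a smaller part of the TEAD family RNA in the A375-VR library. TEAD4 was 72.7% of the summed TEAD FPKM in the A375 library against 52.9% in the A375-VR library. TEAD1 was 13.7% and 24.8% of that sum. The summed FPKM of all 4 was 55.2 in the A375 library against 36.0 in the A375-VR library, while that of the other 3 was 15.1 and 16.9. The sum of YAP1 and WWTR1 was 1.35 times the TEAD sum in the A375 library against 3.68 times in the A375-VR library. These ratios compare RNA per length, and the levels of the proteins were not measured.

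**Figure D3:**
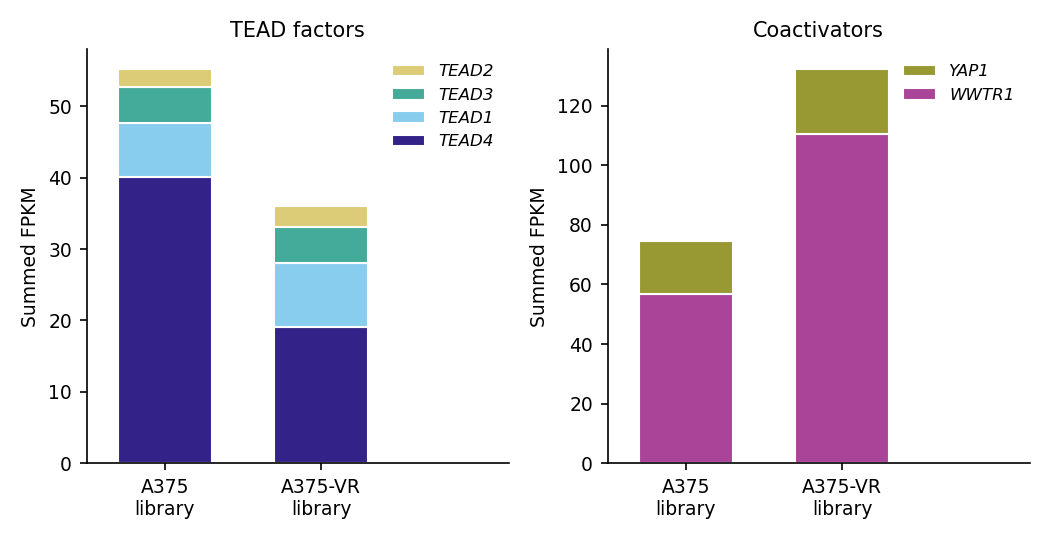
Summed FPKM of the TEAD factors (left) and of the coactivators (right) in each library, 1 library per bar and no replicate error. The TEAD bar is 55.2 in the A375 library against 36.0 in the A375-VR library, with the TEAD4 block going from 40.2 to 19.1. The coactivator bar is 74.7 and 132.

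CTGF and CYR61, which encode the matrix proteins CCN2 and CCN1, were close to each other in level and in fold. CTGF (Entrez 1490; chromosome 6 from 132269316 to 132272512, minus strand) measured 50.4 FPKM in the A375 library against 16.5 in the A375-VR library, which is 3.05-fold lower (2.79 to 3.34). CYR61 (Entrez 3491; chromosome 1 from 86046444 to 86050272, plus strand) measured 55.7 FPKM in the A375 library against 18.2 in the A375-VR library, 3.07-fold lower (2.82 to 3.34). Their differences of -1.55 and -1.57 ranked 11 and 10 from the bottom of 10761 genes. The ratio of CTGF to CYR61 was 0.904 in the A375 library against 0.909 in the A375-VR library. Both genes stood above TEAD4 in the A375 library. In the A375-VR library they stood below YAP1 and TEAD4, in a run of 4 genes in which the intervals of neighbours overlapped. The recovered reads of YAP1 may be too few, which makes its interval too wide. The overlap of YAP1 with TEAD4 is therefore uncertain.

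ANKRD1 (Entrez 27063; chromosome 10 from 92671853 to 92680844, minus strand) was the target with the largest fold. It measured 6.92 FPKM in the A375 library against 1.17 in the A375-VR library, 5.93-fold lower (4.198 to 8.58). This rested on 244 and 38 recovered reads, so it is the least precise of the 3 targets, and its interval lies above those of CTGF and CYR61. Its difference of -1.87 ranked 5 from the bottom, and was -2.47 with a pseudocount of 0.1 and -2.31 after rescaling to a common sum. ANKRD1 went from the place between TEAD1 and TEAD3 in the A375 library to the lowest of the 10 genes in the A375-VR library.

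AJUBA (Entrez 84962; chromosome 14 from 23440386 to 23451760, minus strand), which binds LATS kinases and limits their action on YAP, was lower together with the targets. It measured 17.7 FPKM in the A375 library against 6.95 in the A375-VR library, 2.55-fold lower (2.33 to 2.78), from 1884 and 683 recovered reads. Its difference of -1.23 ranked 25 from the bottom. Overlapping genes limit a few of these values, because no source used here says whether counting used strand. A protein-coding model on the same strand overlaps AJUBA, the opposite-strand genes CD37 and DKKL1 overlap TEAD2, and LINC01013 spans CTGF on the opposite strand. CD37 measured 0.121 FPKM in the A375 library against 0 in the A375-VR library, and DKKL1 0.307 and 0.0833.

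**Figure D4:**
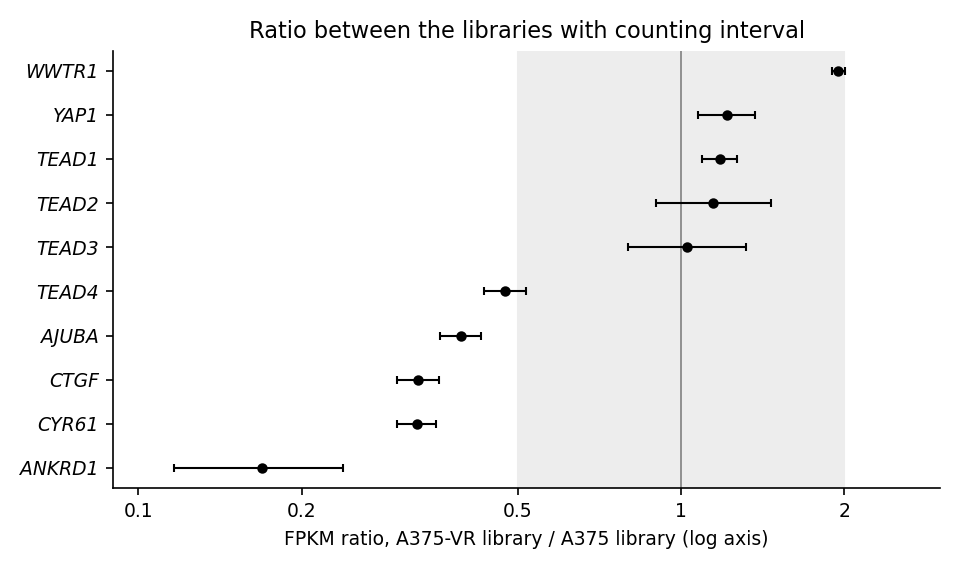
Ratio of FPKM, A375-VR library over A375 library, on a log axis, with 95% exact counting intervals, 1 library per group. The grey band is a ratio of 0.5 to 2. TEAD4, AJUBA, CTGF, CYR61 and ANKRD1 lie left of it, with the interval of TEAD4 reaching into it, and WWTR1 sits at its right edge.

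Other genes of the CCN, AJUBA and ANKRD1 families did not all share the direction of the members. NOV, the third expressed CCN gene, measured 10.7 FPKM in the A375 library against 23.4 in the A375-VR library, 2.18-fold higher (1.96 to 2.43), where CTGF and CYR61 were lower. Its difference of 1.06 was under the 2-fold call after centring, where none of the CCN genes was 2-fold higher. WISP1, WISP2 and WISP3 did not pass the filter. Of 5 expressed LIM proteins related to AJUBA, AJUBA included, 4 had a difference below 0, and AJUBA alone was called. The focal adhesion protein ZYX had 51.8 and 37.5 FPKM, and LIMD1, another partner of LATS, 1.78 and 1.21. LPP measured 0.668 FPKM in the A375 library against 1.08 in the A375-VR library. ANKRD2, a muscle relative of ANKRD1, had 1.12 and 0.587 FPKM on 29 and 14 recovered reads, a ratio of 0.523 (0.255 to 1.02) that was not distinguishable from 1.

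A signature of 22 YAP and TAZ targets holds CTGF, CYR61 and ANKRD1 and 19 further genes, of which 16 passed the filter. In these 16 the median difference was -0.21, against 0.10 over all genes, with 10 below 0 and 6 above. Over all genes 39.7% were below 0. Of the 16, 1 was called lower, beside 0.613% of all genes, and none higher, beside 3.14%. After centring 2 were called lower, beside 0.939% of all genes. The gene called is F3, tissue factor, the trigger of clotting, with 5.66 FPKM in the A375 library against 1.10 in the A375-VR library, 5.15-fold lower (3.82 to 7.05). AXL, a receptor tyrosine kinase, had 51.0 and 26.2 FPKM, 1.95-fold lower (1.81 to 2.09). AMOTL2, an angiomotin that binds YAP, had 33.9 and 18.9 FPKM, 1.80-fold lower (1.70 to 1.90). NT5E, the ectonucleotidase CD73, stood the other way with 12.04 and 23.1 FPKM, 1.92-fold higher (1.68 to 2.21). The further targets thus lay on both sides of 0, and of these 16 genes F3 alone had a ratio below those of CTGF and CYR61.

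The Hippo kinases and their adaptors had no member 2-fold apart. Of 25 genes 24 passed the filter, with a median difference of 0.06, which was -0.04 after centring, and 13 above 0 against 11 below. SAV1, the scaffold of STK3 and STK4, measured 15.7 FPKM in the A375 library against 9.28 in the A375-VR library, 1.70-fold lower (1.56 to 1.84). NF2, the upstream tumour suppressor merlin, had 9.56 and 5.998 FPKM, 1.59-fold lower (1.45 to 1.75). The kinase STK3 had 4.46 and 2.94 FPKM, 1.52-fold lower (1.37 to 1.68), and TNIK had 1.00 and 1.94 FPKM, 1.94-fold higher (1.58 to 2.38). The kinases LATS1 and LATS2, named after their values were seen, had folds of 1.08 and 1.10.

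Proteins that bind YAP or hold it in the cytoplasm showed no common direction, with 8 of 16 above 0 and a median of -0.01, and none was 2-fold apart. YWHAH, a 14-3-3 protein, measured 55.5 FPKM in the A375 library against 30.3 in the A375-VR library, 1.83-fold lower (1.71 to 1.96). The angiomotin AMOT had 1.51 and 2.63 FPKM, 1.74-fold higher (1.47 to 2.06), opposite to its relative AMOTL2. SFN, the 14-3-3 protein sigma, had 6.47 and 4.42 FPKM from 19 and 12 recovered reads. Of 18 FAT cadherins and polarity genes only 8 passed the filter, with a median of -0.13 and none 2-fold apart. FJX1, a kinase regulator of FAT signalling that is also in the target signature, had 25.6 and 14.97 FPKM, 1.71-fold lower, while FAT1 had 7.14 and 10.6 FPKM, 1.48-fold higher. DLG1 had 6.58 and 4.94 FPKM and LLGL2 0.717 and 1.08.

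A list of TEAD cofactors other than YAP and TAZ also held TP73, RUNX1 and RUNX2, transcription factors that are not TEAD cofactors. Of its 13 genes 9 passed the filter, with a median of 0.12, 5 above 0 and none 2-fold apart. TP73 and RUNX1 were among the 4 below 0, with differences of -0.34 and -0.22, and they pull that median down. VGLL4, a vestigial-like protein that competes with YAP for TEAD, measured 3.54 FPKM in the A375 library against 6.43 in the A375-VR library, 1.82-fold higher (1.48 to 2.24). The coactivators NCOA3, NCOA2 and NCOA1 were 1.84-fold, 1.80-fold and 1.61-fold higher. VGLL1, VGLL2 and VGLL3 did not pass the filter.

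**Figure D5:**
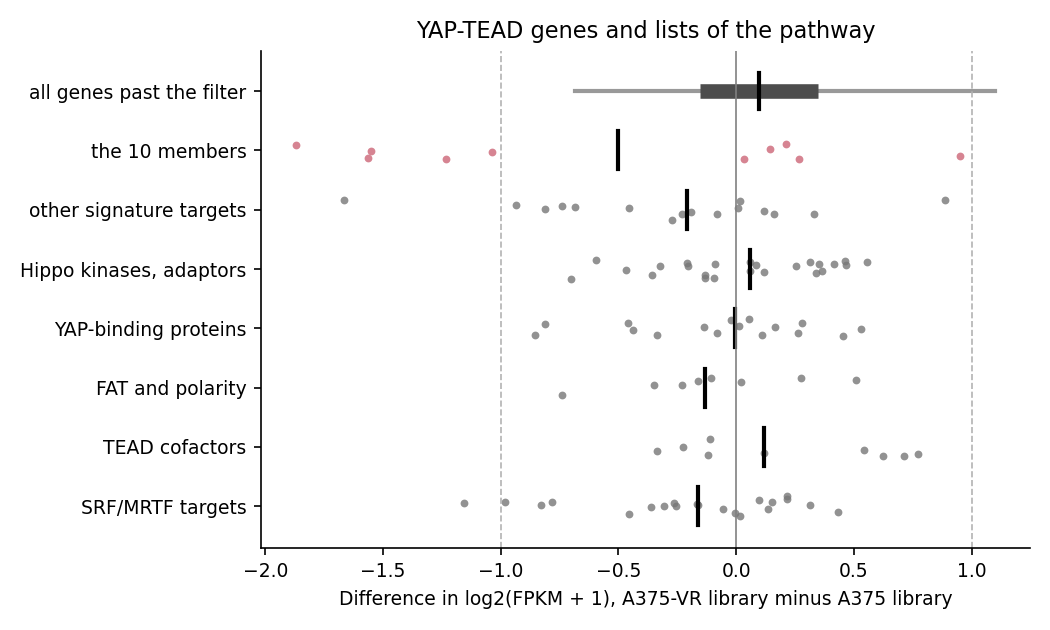
Difference in log2(FPKM + 1), A375-VR library minus A375 library, for genes past the filter. Each point is a gene, black bars are medians, and the top line shows all genes with the middle 50% (thick) and 95% (thin); dashed lines mark 2-fold. The 10 members have a median of -0.50 and the other signature targets -0.21, while the medians of the other 5 lists plotted lie between -0.16 and 0.12.

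Melanocyte markers also differed between the libraries. Of 10 markers 5 passed the filter and 3 were 2-fold higher in the A375-VR library, beside 3.14% of all genes: SOX10 with 65.3 and 150 FPKM, ERBB3 with 10.1 and 36.0, and S100B with 3.72 and 12.6. The summed level of all 10 markers was 87.4 FPKM in the A375 library against 205 in the A375-VR library. MITF stood the other way with 6.47 and 3.47 FPKM, 1.86-fold lower. The pigment cell genes PMEL, MLANA, TYR, TYRP1 and DCT did not pass the filter. MLANA was at 0 in the A375 library and at 0.0592 FPKM in the A375-VR library, and TYR at 0 in both. The part of these markers in the values of the YAP and TEAD genes was not tested. For other cell types, the summed FPKM was 4.88 and 7.05 for 8 fibroblast markers, 1.86 and 2.83 for 7 endothelial markers, and 0.0595 and 1.61 for 8 leukocyte markers. It was 47.8 and 59.5 for 8 keratinocyte markers, of which KRT10 held 44.9 and 56.0, and 5 were at 0 in each library. Among the endothelial markers KDR was called higher, with 0.394 and 1.84 FPKM, but its difference of 1.02 was under the 2-fold call after centring. In a bulk library, fewer cells of a kind and less RNA per cell cannot be told apart.

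Over the 8919 genes past the filter with a promoter window, the number of TEAD hexamers in it did not sort the differences in 1 direction. The other 1842 genes past the filter had no window, CYR61, TEAD1 and TEAD4 among them. Of these 0.814% were called lower, against 0.572% of the genes with a window. The median difference was 0.09 in 7607 genes without a copy, 0.11 in 1208 genes with 1 and 0.00 in 97 genes with 2. At least 2-fold lower were 0.552%, 0.414% and 3.09% of these groups, and the last stands for 3 genes, ANKRD1 among them. Only 7 genes past the filter had 3 or more copies. Of these CTGF alone was called lower, EVI5L and IDUA were called higher, and their median was 0.45. The share of genes with 2 copies that were called higher was 3.09%, against 3.01% without a copy. Among the members, CTGF, ANKRD1 and AJUBA were lower and held the hexamer in a window, while YAP1 held it and had a fold of 1.21. Since their values chose the members, no link between the hexamer and the difference is read from them.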

How the data were processed

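RNA of 2 libraries was analysed, 1 per group, grouped by their titles. Per the labels' series design text, a stranded TruSeq mRNA kit was used, sequencing was paired-end at 150 bp on the HiSeq 2000, and TopHat 1.3.3 placed the reads on GRCh37. The authors deposited FPKM per gene with zeros kept. Counting tool, annotation, filters and strand use: not given in the sources used here. Computed here, with Python 3.11.15, were ratios and differences of log2(FPKM + 1), with a filter of FPKM 1 in at least 1 library. With 1 library per group no p-value is given.

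Reads were recovered because FPKM of equal reads share 1 ratio between the libraries, and the greatest common divisor of neighbouring genes gave the totals. For 13989 of 13990 genes above 0 in both libraries the ratio was one of whole reads within a relative tolerance of 1e-11. A gene's reads are the smallest that fit, so true counts can be multiples and intervals too wide. For YAP1 the length so found, 1574 bp, is far below the 6311 bp of its exons in GENCODE release 44. It was 1523 against 3049 bp for TEAD3 and 2455 against 3698 bp for CYR61. For SFN the length so found was 165 bp. Steps were tested on simulated data.

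The members and lists were chosen with earlier results of these data known. Named were all 10 members and, of each other list, up to 4 genes with the largest difference plus those 2-fold apart; any other gene named was chosen after its values were seen. Genes of 1 list are not reported here. Alternatives were a pseudocount of 0.1, no filter or FPKM 5, a common sum, and centring on the median or on a mean trimmed by 30% of log ratios and 5% of levels.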

Additional observations from a re-analysis of the deposited data

How the results depend on the processing

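The count of 5 members called lower and none higher, and the median of the further signature targets, held under all 6 alternatives, the latter between -0.31 and -0.20. The 10 genes gave 59 values under the alternatives, of which 53 lay within the counting interval of the deposited scale. The settings that change only the filter leave a gene's own difference as it was, so their values lie inside by construction. The 6 values outside came from the other settings. They were those of ANKRD1 with a pseudocount of 0.1 and with a common sum, and of WWTR1 and TEAD1 with either centring. TEAD3 turned to -0.063 after centring on the median and to -0.064 on the trimmed mean. The median of the Hippo kinases and their adaptors turned to -0.044 with the median centring, to -0.046 with the trimmed mean and to -0.090 with the filter at FPKM 5, which tests fewer genes. With that filter the median of the members was -1.04, because TEAD2 did not pass and 9 were left. Genes called lower were 140 with a pseudocount of 0.1, 104 after rescaling to a common sum and 101 with either centring, against 66. Genes called higher were 689 and 624 in the first 2 of these, against 338. The common sum was larger than the deposited sums of 265149 and 260897 FPKM in the A375 and A375-VR libraries. Both libraries were thus scaled up before the pseudocount of 1 was added, so rescaling also lowered the weight of that pseudocount. The cause was not tested where none is given. No paired analysis was possible because there was 1 library per group. By recovered reads, which may be too few for TEAD3, depth limits TEAD2, TEAD3 and ANKRD1 most, and no value has a replicate check.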

Other observations

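Genes of serum response factor and its MRTF cofactors, which also act on CTGF, CYR61 and ANKRD1, were more often below 0 than above. Of 24 genes 21 passed the filter, with 13 below 0, a median of -0.16 and 1 called lower, where 0.613% of all genes were. After centring 2 were called lower, beside 0.939% of all genes. The list also held the regulators SRF, MRTFA and MRTFB themselves. Their differences of 0.21, 0.22 and 0.15 pull that median up. Tropomyosin TPM1 measured 27.3 FPKM in the A375 library against 11.7 in the A375-VR library, 2.34-fold lower (2.23 to 2.45). The calponin CNN2 had 23.0 and 11.1 FPKM, 2.06-fold lower (1.88 to 2.26). The cytoplasmic actins ACTB and ACTG1 were 1.78-fold and 1.72-fold lower, from 1236 and 1219 FPKM to 696 and 709; actin genes have near-identical pseudogenes, so their reads are uncertain.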
